A study of Mus musculus with 18 samples.

Results

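The genes described here are 47 markers of cells that are not T cells: B cells, macrophages and monocytes, dendritic cells, thymic epithelium, stroma and endothelium, erythroid cells and neutrophils. They were read on arrays of sorted thymocytes, where they serve as controls of purity. A probe was taken when its annotated symbol, current or older, was one of the 47. This gave 85 of the 46237 probes on the array, and they stood for 46 of the 47 genes. Cd79a, the alpha chain of the B cell receptor's signalling pair, had no probe in the annotation used. Of the 85 probes, 5 carried an older symbol: Igh-6 on 2 Ighm probes, Ebf for Ebf1, 9830005G06Rik for Clec9a and Krt2-8 for Krt8. A probe annotated Ms4a2, a symbol once also used for Ms4a1, was not taken as Ms4a1.

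RNA came from 3 sorted thymocyte populations, those with both coreceptors (double positive, DP), with CD4 only (CD4 SP) and with CD8 only (CD8 SP). The mice, of strain C57Bl/6N, were 4 to 6 weeks of age. Each population was taken from wild-type mice (wt) and from FoxN1-Gpr177 conditional knockout mice (cKO), in which FoxN1-Cre removes exon 3 of Gpr177, the gene now called Wls. FoxN1-Cre is active in thymic epithelium, so the cells that lost the gene were not the cells on the arrays, and the labels do not say whether wt mice carried Cre or the floxed allele. There were 3 arrays for each of the 6 groups, 18 altogether, with cRNA made from 200 ng of RNA and numbered 1 to 3 within a group. The labels do not say whether the 3 came from separate mice, so p-values measure the spread between these arrays, which may be technical.

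The thymus holds far more thymocytes than any other cell, but thymocytes develop in contact with the rest. Cortical epithelium displays the peptides on which DP cells are positively selected, medullary epithelium and dendritic cells remove self-reactive cells, and macrophages engulf the many thymocytes that die. Some B cells reside in the medulla, and red cells and neutrophils arrive with the blood. RNA of such cells can enter a sorted sample through free RNA, doublets or cells that fall in the gate, and a thymocyte may also transcribe a gene that is better known from another cell. In bulk RNA, fewer cells of a type and less RNA per cell cannot be told apart.

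The labelled populations were first set against genes of thymocytes. A reference list of 22 such genes had 34 probes for 18 genes, and 26 to 30 of the 34 were detected per array. Detection means a deposited detection p under 0.05. The Cd4 probe ILMN_1249663 was detected on all 12 DP and CD4 SP arrays and on 0 of 6 CD8 SP arrays. The Cd8b1 probe ILMN_2664929 was detected on all 12 DP and CD8 SP arrays and on 2 of 6 CD4 SP arrays. Another Cd8b1 probe, ILMN_1257694, was 2.11 log2 units higher in CD4 SP than in DP cells, so the probes of this coreceptor gene disagreed.

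Most probes of the non-T cell genes were dim, and the number detected was much the same on every array. Between 22 and 30 of the 85 probes were detected per array, which is 25.9% to 35.3% with a median of 31.8%. Over all probes the share was 41.5% to 46%, with a median of 44.0%, and over the thymocyte reference it was 76.5% to 88.2%. At a detection p under 0.001, 16 to 23 of the 85 probes remained (median 23.5%), against 32.0% of all probes and 79.4% of the reference. Detected values began close to the middle of each array: the lowest detected log2 value was 4.79 to 4.99, and the median of every array after normalization was 4.85. This lowest value is not a cut-off, because some probes that read above it were not detected, as for Aire on DP wt array 1. Values under about 5 therefore have no order, and values a little above 5 may also be undetected. The plot of shares by array shows the 3 strictness levels side by side.

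**Figure D1:**
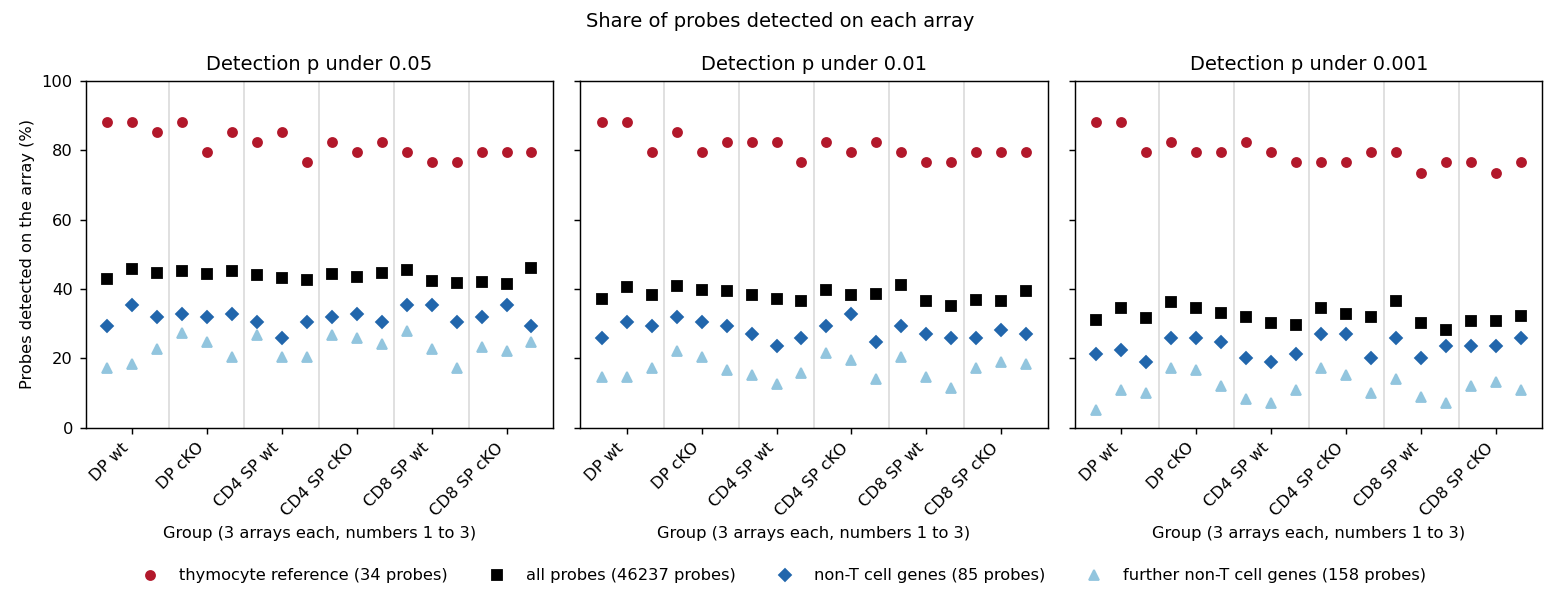
Share of probes detected on each array (y axis, percent) at detection p under 0.05, 0.01 and 0.001, for 34 thymocyte reference probes, all 46237 probes, 85 probes of the non-T cell genes and 158 probes of further non-T cell genes. Each point is 1 array and the x axis gives the 6 groups of 3. The non-T cell genes lie below the share of all probes on every array.

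By group, DP wt arrays 1 to 3 detected 25, 30 and 27 of the 85 probes, and DP cKO arrays 28, 27 and 28. CD4 SP arrays detected 26, 22 and 26 in wt and 27, 28 and 26 in cKO. CD8 SP arrays detected 30, 30 and 26 in wt and 27, 30 and 25 in cKO. These ranges overlapped between the genotypes in each population. A probe was detected on all 3 arrays of its group for 24 probes in DP wt, 26 in DP cKO, 19 in CD4 SP wt, 22 in CD4 SP cKO, 24 in CD8 SP wt and 20 in CD8 SP cKO, or 22.4% to 30.6% of the 85 against 32.8% to 36.0% of all probes.

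Across the 18 arrays, 41 of the 85 probes (48.2%) were detected on none, against 31.4% of all probes. A further 14 were detected on 1 or 2 arrays, 18 on 3 to 17, and 12 (14.1%) on all 18, against 22.0% of all probes. Of the thymocyte reference probes, 1 of 34 was never detected and 22 were detected on all 18 arrays. Counted by gene, 18 of 46 (39.1%) were never detected by any probe, against 27.2% of the 22491 genes of the annotation. The 12 probes seen on every array belonged to Ighm, Ebf1, Itgax, Psmb11, Krt8, Ccl25, Pdgfra, Pecam1, Camp and, with 3 probes, Hbb-b1. Only 4 of them, for Ebf1, Ccl25, Pecam1 and Hbb-b1, kept a detection p under 0.001 on all 18.

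**Figure D2:**
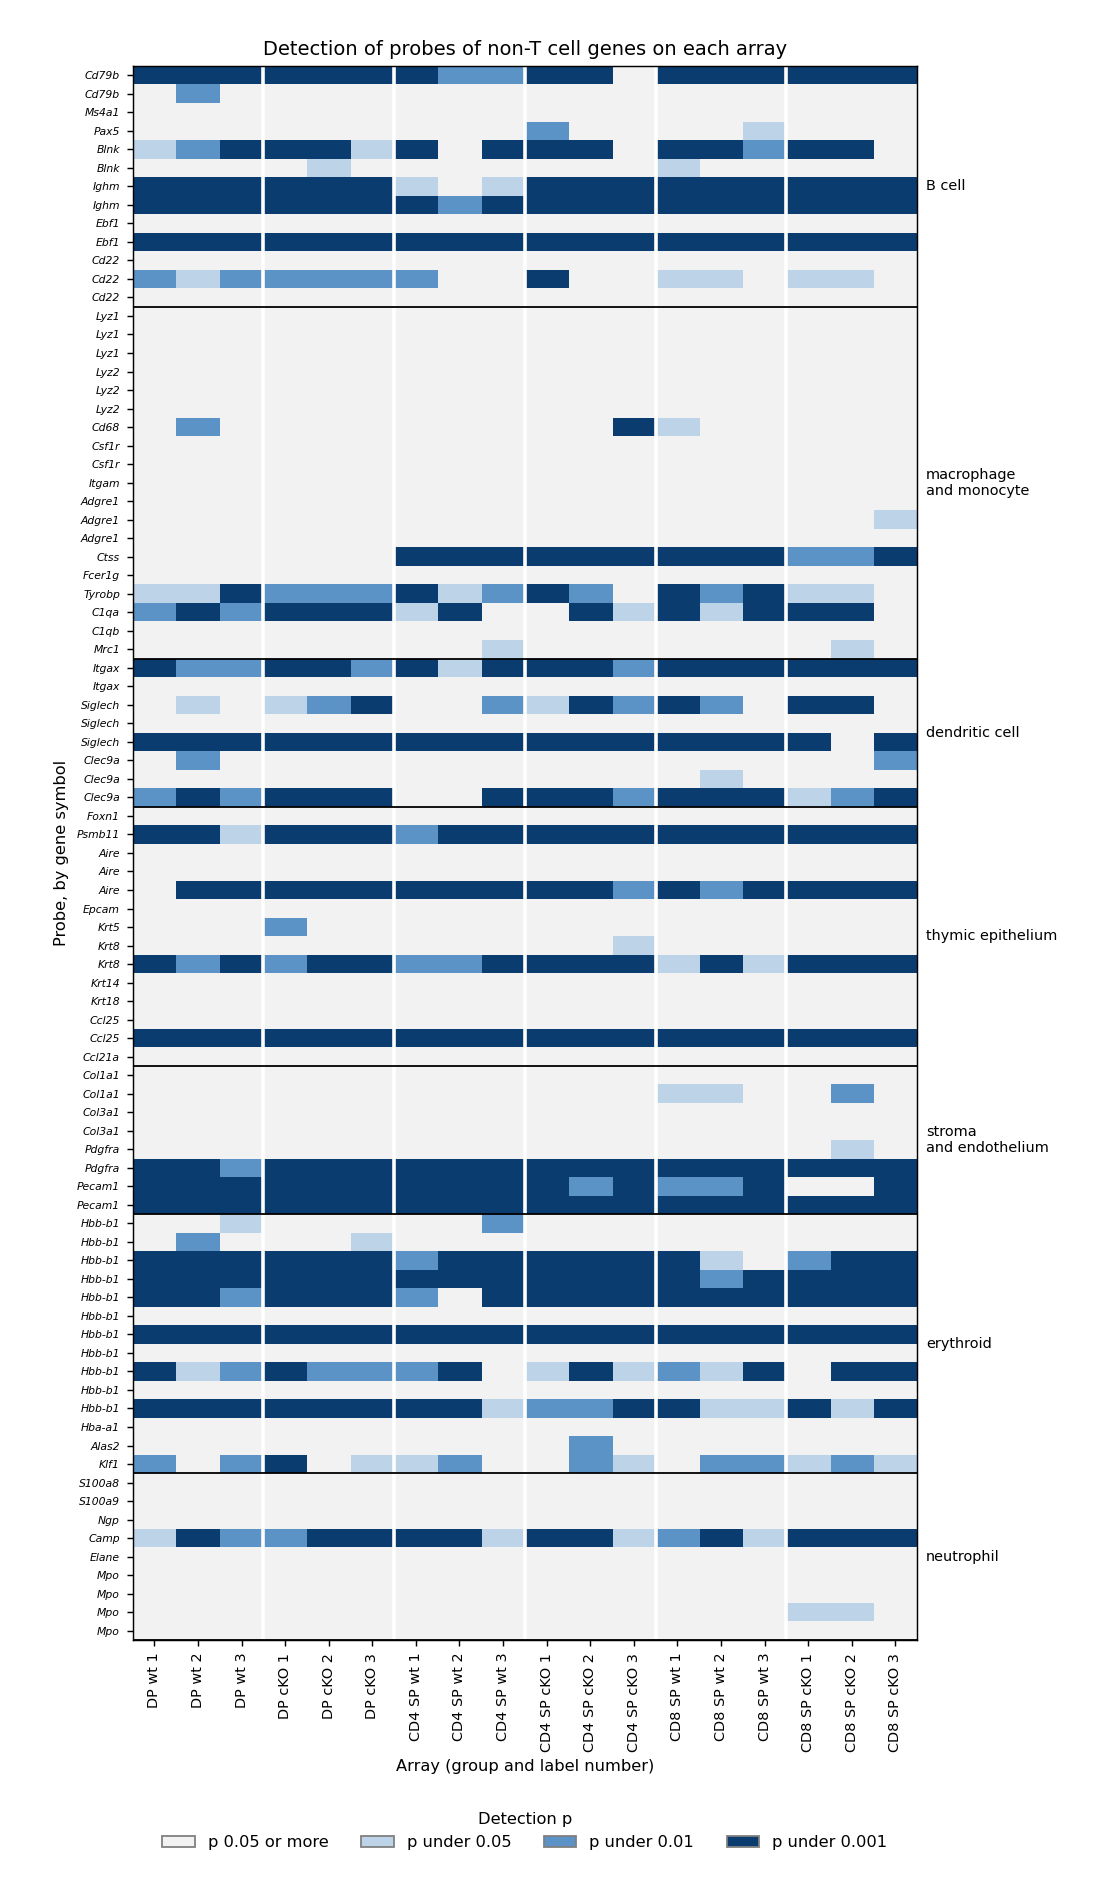
Detection of each of the 85 probes (rows, by gene symbol and cell class) on each of the 18 arrays (columns, by group and label number), with darker cells for a smaller detection p. Rows of 41 probes are blank throughout, and the row of Ctss is blank on the 6 DP arrays and filled on the 12 SP arrays.

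Genes at background on all 18 arrays included defining genes of each class other than dendritic cells. Never detected were Ms4a1 (CD20 of B cells), Csf1r (the receptor on which macrophages depend), Itgam (the CD11b integrin chain), Lyz1 and Lyz2 (lysozymes), Fcer1g (an Fc receptor signalling chain) and C1qb (a complement subunit). Among epithelial genes Foxn1 (the transcription factor of thymic epithelial identity), Epcam (a surface adhesion molecule of epithelia), Krt14 and Krt18 (keratins) and Ccl21a (a medullary chemokine) were not detected on any array. The same held for Col3a1 (fibroblast collagen), Hba-a1 (alpha globin) and the neutrophil granule and cytosol genes S100a8, S100a9, Ngp and Elane. Another 6 genes were detected on 1 or 2 arrays only: Pax5 (the B lineage factor), Adgre1 (a surface receptor of macrophages), Mrc1 (mannose receptor), Krt5, Alas2 (heme synthesis in red cell precursors) and Mpo (myeloperoxidase). A probe at background limits the level it could read and does not show that the transcript was absent.

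Several probes of one gene often disagreed. Of the 21 genes with several probes, 8 (38.1%) had a probe that was never detected beside one detected on at least 3 arrays: Ebf1, Cd22, Itgax, Siglech, Aire, Ccl25, Col1a1 and Hbb-b1. The share over all genes of the annotation with several probes was 34.2%. Hbb-b1, beta globin, had 11 probes, of which 3 were never detected and 3 were detected on every array.

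For differences between groups, intensities were background-corrected, quantile normalized and taken to log2. Probes detected on at least 3 arrays were tested, which left 30 probes of 22 of the genes among 26676 probes in all. A probe was called when its adjusted p was under 0.05 in limma's moderated test, with Benjamini-Hochberg adjustment over all 26676 probes. Values below are normalized log2 intensities of arrays 1, 2 and 3, in that order, and errors of differences are standard errors. Differences between populations are means over both genotypes, 6 arrays against 6. Without background correction the 13 called differences between populations were 0.26 to 0.5 of the size given here on the log2 scale, so their sizes hold for background-corrected values. All comparisons of a population draw on the same arrays, so the comparisons with DP cells share their DP arrays.

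Between CD4 SP and DP cells 5 of the 30 probes were called, 1 higher and 4 lower in CD4 SP, where 11.1% of all tested probes were called (4.97% higher, 6.13% lower). The 5 were Ctss, 2 probes of Ighm, Cd79b and Siglech. Between CD8 SP and DP cells 4 of 30 were called, 1 higher and 3 lower, where 15.7% of all tested probes were called (6.34% higher, 9.35% lower): Ctss, Siglech, Pecam1 and Hbb-b1. Between CD4 SP and CD8 SP cells 4 of 30 were called, 2 higher and 2 lower in CD4 SP, where 9.36% of all tested probes were called (4.96% higher, 4.4% lower): Pecam1, Siglech and both Ighm probes. The shares of 16.7%, 13.3% and 13.3% lay near the background. The median difference over the 30 probes was -0.01, 0.06 and -0.04 log2 in the 3 comparisons, beside 0.03, 0.07 and 0.00 over all tested probes.

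Among B cell genes, Ighm and Cd79b were lower in CD4 SP than in DP cells. Ighm is the constant region of the IgM heavy chain, which B cells carry in their receptor. Its probe ILMN_2744657 read 7.45, 8.04 and 8.10 in DP wt and 8.22, 8.29 and 8.38 in DP cKO. It read 5.02, 4.73 and 5.32 in CD4 SP wt and 5.75, 5.81 and 6.72 in CD4 SP cKO. It read 8.44, 7.46 and 8.08 in CD8 SP wt and 8.23, 7.68 and 8.16 in CD8 SP cKO. All 6 CD4 SP arrays lay below all 12 others, and CD4 SP wt array 2 did not detect the probe. The difference between CD4 SP and DP was -2.52 ± 0.22 log2 (adjusted p = 4.7e-07, limma), -2.84 within wt and -2.20 within cKO. Between CD4 SP and CD8 SP it was -2.45 ± 0.22 (adjusted p = 1.57e-06, limma). Between CD8 SP and DP it was -0.07 ± 0.22 (adjusted p = 0.885, limma).

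The other Ighm probe, ILMN_2744660, showed the same order. It read 7.63, 8.13 and 8.21 in DP wt and 8.81, 8.78 and 8.30 in DP cKO. CD4 SP arrays read 6.28, 5.74 and 6.48 in wt and 6.83, 6.35 and 6.90 in cKO. CD8 SP arrays read 8.53, 7.97 and 8.45 in wt and 8.70, 8.01 and 8.15 in cKO. Here too the CD4 SP arrays did not overlap with the other 12. The difference from DP was -1.88 ± 0.20 log2 (adjusted p = 5.07e-06, limma) and from CD8 SP -1.87 ± 0.20 (adjusted p = 1.15e-05, limma). Both Ighm probes differed in the same direction on each of the 3 BeadChips, in both comparisons.

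Cd79b encodes the beta chain of the B cell receptor's signalling pair. Its probe ILMN_2610822 read 6.82, 6.85 and 7.03 in DP wt and 6.84, 7.63 and 7.38 in DP cKO. The CD4 SP values were 6.27, 5.92 and 5.98 in wt and 6.70, 6.82 and 4.98 in cKO, and the last of these was not detected. The CD8 SP values were 6.30, 7.15 and 6.58 in wt and 6.64, 6.83 and 6.96 in cKO. The CD4 SP arrays lay lower, with a slight overlap with DP, by -0.98 ± 0.27 log2 (adjusted p = 0.0251, limma). The 3 BeadChips gave -0.34, -0.87 and -1.73. The call was lost without DP wt array 3 (adjusted p = 0.0521), DP cKO array 2 (0.0624) or 3 (0.0563), or CD4 SP wt array 2 (0.0573) or 3 (0.0525), and with median scaling (0.11). The second Cd79b probe was detected on 1 array.

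The rest of the B cell list did not pass the test in any comparison. Ebf1, an early B lineage transcription factor, read 5.96, 6.09 and 6.58 in DP wt and 6.33, 6.65 and 6.25 in DP cKO with ILMN_2707452. In CD4 SP it read 6.63, 7.43 and 6.97 in wt and 6.57, 6.91 and 6.55 in cKO. In CD8 SP it read 6.29, 7.06 and 7.37 in wt and 6.30, 6.48 and 7.01 in cKO. These values overlapped throughout, and CD4 SP minus DP was 0.53 ± 0.22 (adjusted p = 0.151, limma). Blnk, a B cell receptor adaptor, was detected on 15 arrays and Cd22, an inhibitory receptor of B cells, on 12. Over the 6 tested B cell probes the mean log2 value of an array was 6.51 to 7.36 in DP, 5.72 to 6.43 in CD4 SP and 6.63 to 7.07 in CD8 SP arrays, with Ms4a1 at background on all 18. The 6 include the 3 called probes of Ighm and Cd79b, so this mean restates their differences in part. It is no separate measure of the class. Ebf1, also among the 6, went the other way. The part of B cells in the Ighm and Cd79b differences was not tested.

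Ctss was at background on the DP arrays and detected on all SP arrays. It encodes cathepsin S, a lysosomal protease that trims the invariant chain in antigen-presenting cells. Its only probe, ILMN_1246861, read 4.74, 4.47 and 4.44 in DP wt and 4.49, 4.23 and 4.69 in DP cKO, and no DP array detected it. CD4 SP arrays read 7.21, 7.22 and 6.98 in wt and 6.95, 6.17 and 7.03 in cKO. CD8 SP arrays read 6.77, 6.81 and 7.01 in wt and 5.62, 5.88 and 6.35 in cKO. All 12 SP arrays detected the probe and lay above every DP array. The measured mean of Ctss was 2.42 ± 0.19 log2 higher in CD4 SP than in DP cells (adjusted p = 8.4e-08, limma). In CD8 SP cells it was 1.90 ± 0.19 higher than in DP (adjusted p = 2.65e-06, limma). Without background correction these differences were 0.75 and 0.57 log2. With background-corrected DP values raised to the lowest detected value of their array, Ctss was 4.20-fold higher in CD4 SP and 2.93-fold higher in CD8 SP cells. Undetected probes can read above that value, so these folds are not lower bounds. Ctss in CD4 SP minus CD8 SP was 0.52 ± 0.19 (adjusted p = 0.101, limma), and this passed the threshold without CD4 SP cKO array 2 (0.027).

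No other macrophage or monocyte gene was called. Of the 12 genes of this class 6 were never detected, and the defining genes Csf1r, Itgam, Lyz2 and Adgre1 were at background on all SP arrays with 1 exception, CD8 SP cKO array 3 for Adgre1. Tyrobp, a signalling adaptor of myeloid and natural killer cells, read 5.49, 5.53 and 7.16 in DP wt and 5.40, 5.60 and 6.04 in DP cKO. In CD4 SP Tyrobp read 5.88, 5.68 and 6.05 in wt and 5.81, 5.60 and 4.94 in cKO. In CD8 SP Tyrobp read 5.90, 6.02 and 6.74 in wt and 5.40, 5.40 and 4.73 in cKO. The populations overlapped for Tyrobp, and the last array of each SP cKO group did not detect it.

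C1qa, a complement subunit made by tissue macrophages, had no call, and its groups overlapped. C1qa read 6.35, 6.04 and 5.57 in DP wt and 6.62, 6.40 and 6.16 in DP cKO. CD4 SP values were 5.48, 6.36 and 5.06 in wt and 5.17, 7.02 and 5.49 in cKO. CD8 SP values were 6.52, 5.54 and 6.69 in wt and 5.93, 6.22 and 4.68 in cKO. Its partner C1qb was never detected. Cd68, a lysosomal protein of macrophages, was detected on 3 single arrays of 3 groups. Over the 4 tested probes of this class the mean log2 value of an array was 5.20 to 5.45 in DP, 5.55 to 5.97 in CD4 SP and 4.99 to 6.18 in CD8 SP. This mean includes Ctss, at 2.42 log2 for CD4 SP minus DP. Of the 4 probes 2 were higher and 2 lower in CD4 SP than in DP cells, with a median difference of -0.04 log2. For CD8 SP minus DP 1 was higher and 3 were lower, with a median of -0.15. The part of macrophages in the Ctss difference was not tested.

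Siglech, a surface lectin of plasmacytoid dendritic cells, was lower in CD8 SP than in DP cells by 1 of its probes. ILMN_2928599 read 8.17, 7.82 and 8.13 in DP wt and 8.31, 7.24 and 8.24 in DP cKO. In CD4 SP this probe read 7.31, 6.64 and 7.32 in wt and 6.89, 6.53 and 7.37 in cKO. In CD8 SP it read 6.19, 6.08 and 6.62 in wt and 6.15, 4.95 and 6.63 in cKO. The CD8 SP arrays lay below every DP array, and CD8 SP cKO array 2 did not detect the probe. CD8 SP minus DP was -1.88 ± 0.28 log2 (adjusted p = 0.000135, limma), -1.74 within wt and -2.02 within cKO, and the call held without any 1 array.

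CD4 SP cells lay between the other populations for this Siglech probe, with 2 calls that rested on single arrays. CD4 SP minus DP was -0.98 ± 0.28 log2 (adjusted p = 0.0287, limma). That call was lost without DP wt array 1 (0.066) or 3 (0.057), DP cKO array 1 (0.0801) or 3 (0.0777), CD4 SP wt array 2 (0.0807) or CD4 SP cKO array 1 (0.0546) or 2 (0.0733), and with no filter (0.0544). CD4 SP minus CD8 SP was 0.91 ± 0.28 (adjusted p = 0.0486, limma). It held when DP cKO array 2, CD4 SP wt array 2, CD4 SP cKO array 2 or CD8 SP cKO array 3 was left out, and was lost without any 1 of the other 14 arrays (0.0532 to 0.123) and with no filter (0.0863). A second Siglech probe, ILMN_1239190, did not share this order. It gave 0 ± 0.32 for CD4 SP minus DP (adjusted p = 0.998, limma) and -0.56 ± 0.32 for CD4 SP minus CD8 SP (adjusted p = 0.363, limma). For CD8 SP minus DP it gave 0.55 ± 0.32 (adjusted p = 0.290, limma). The remaining Siglech probe was never detected.

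The other dendritic cell genes had no call. Itgax, the CD11c integrin chain, read 6.57, 5.52 and 6.13 in DP wt and 6.14, 5.77 and 5.61 in DP cKO. Itgax values in CD4 SP were 6.20, 5.39 and 6.38 in wt and 6.35, 6.00 and 6.14 in cKO. Itgax values in CD8 SP were 6.09, 6.36 and 6.43 in wt and 6.54, 6.48 and 6.65 in cKO. The ranges overlapped, and CD8 SP minus DP was 0.47 ± 0.21 (adjusted p = 0.153, limma). Clec9a, a receptor for dead cells on cross-presenting dendritic cells, read 6.12, 6.70 and 5.87 in DP wt and 6.01, 6.83 and 6.37 in DP cKO. Its CD4 SP values were 4.75, 4.98 and 6.65 in wt and 6.55, 6.77 and 5.93 in cKO. Its CD8 SP values were 6.34, 6.68 and 6.53 in wt and 5.81, 6.69 and 6.64 in cKO. CD4 SP wt arrays 1 and 2 were the 2 of 18 that did not detect this Clec9a probe, ILMN_2929768.

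Among thymic epithelial genes no probe was called in any comparison, and 4 of 14 probes were tested. Ccl25, a chemokine that draws progenitors into the thymus, read 6.50, 6.99 and 6.79 in DP wt and 7.91, 6.74 and 6.88 in DP cKO with ILMN_2942353. Ccl25 in CD4 SP read 6.60, 8.04 and 7.26 in wt and 7.46, 7.16 and 6.87 in cKO. Ccl25 in CD8 SP read 8.51, 7.09 and 7.28 in wt and 6.57, 6.77 and 7.44 in cKO. Single arrays of DP cKO, CD4 SP wt and CD8 SP wt stood highest, and the other Ccl25 probe was never detected.

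Aire, which drives expression of tissue antigens in medullary epithelium, was detected by 1 of 3 probes. It read 5.40, 6.09 and 7.03 in DP wt, the first undetected, and 6.66, 6.64 and 6.50 in DP cKO. CD4 SP arrays gave 6.77, 7.35 and 6.89 in wt and 6.28, 7.38 and 6.06 in cKO. CD8 SP arrays gave 6.76, 6.22 and 7.12 in wt and 6.39, 6.61 and 6.45 in cKO. All groups overlapped for Aire. Psmb11, the proteasome subunit of cortical epithelium, read 6.43, 5.98 and 5.36 in DP wt and 6.58, 7.33 and 6.35 in DP cKO. Psmb11 in CD4 SP read 6.08, 6.68 and 6.61 in wt and 6.84, 7.33 and 6.06 in cKO. Psmb11 in CD8 SP read 6.40, 6.82 and 6.33 in wt and 6.14, 7.05 and 6.32 in cKO. No group stood apart for Aire or Psmb11, while Foxn1, Epcam, Krt14, Krt18 and Ccl21a stayed at background on all 18 arrays. Krt8, a keratin of simple epithelia, was detected on all 18 arrays by 1 of 2 probes and ranged from 5.10 to 6.57.

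In the stromal and endothelial class 1 of 2 tested Pecam1 probes was called. Pecam1 is an adhesion molecule of endothelium that leukocytes carry as well. ILMN_2700982 read 7.79, 6.32 and 7.48 in DP wt and 7.46, 5.60 and 6.31 in DP cKO. Pecam1 in CD4 SP read 7.39, 7.33 and 6.73 in wt and 6.89, 5.77 and 7.34 in cKO. Pecam1 in CD8 SP read 5.43, 5.26 and 5.91 in wt and 4.97, 5.18 and 6.42 in cKO. CD8 SP arrays were lower with overlap, by -1.30 ± 0.37 log2 from DP (adjusted p = 0.0213, limma), and CD4 SP minus CD8 SP was 1.38 ± 0.37 (adjusted p = 0.0227, limma). The BeadChips gave -2.43, -0.74 and -0.73 for CD8 SP minus DP.

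Neither Pecam1 call held throughout. The first was lost without DP wt array 1 (0.0604), DP cKO array 1 (0.066), CD8 SP wt array 2 (0.051) or CD8 SP cKO array 1 (0.0565) or 2 (0.0535), and with no filter (0.0536). The second was lost without CD4 SP wt array 1 (0.0542) or 2 (0.0507), CD4 SP cKO array 1 (0.0533) or 3 (0.0631), CD8 SP wt array 2 (0.0538) or CD8 SP cKO array 1 (0.0577) or 2 (0.0582), and with no filter (0.0557). The probe ILMN_3147074, detected on all 18 arrays, gave -0.03 ± 0.21 and 0.32 ± 0.21 for the same comparisons (adjusted p = 0.943 and 0.447, limma). Pdgfra, a receptor of mesenchymal cells, ranged from 5.73 to 7.56 over the 18 arrays. It read 6.27, 6.29 and 5.73 in DP wt, 6.20, 6.44 and 6.73 in DP cKO, and 5.82, 6.34 and 6.27 in CD4 SP wt. It read 6.67, 7.56 and 6.11 in CD4 SP cKO, 6.41, 6.57 and 6.54 in CD8 SP wt, and 7.14, 6.93 and 6.67 in CD8 SP cKO. Pdgfra had no call, and the fibroblast collagen Col1a1 was detected on 3 CD8 SP arrays only.

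**Figure D3:**
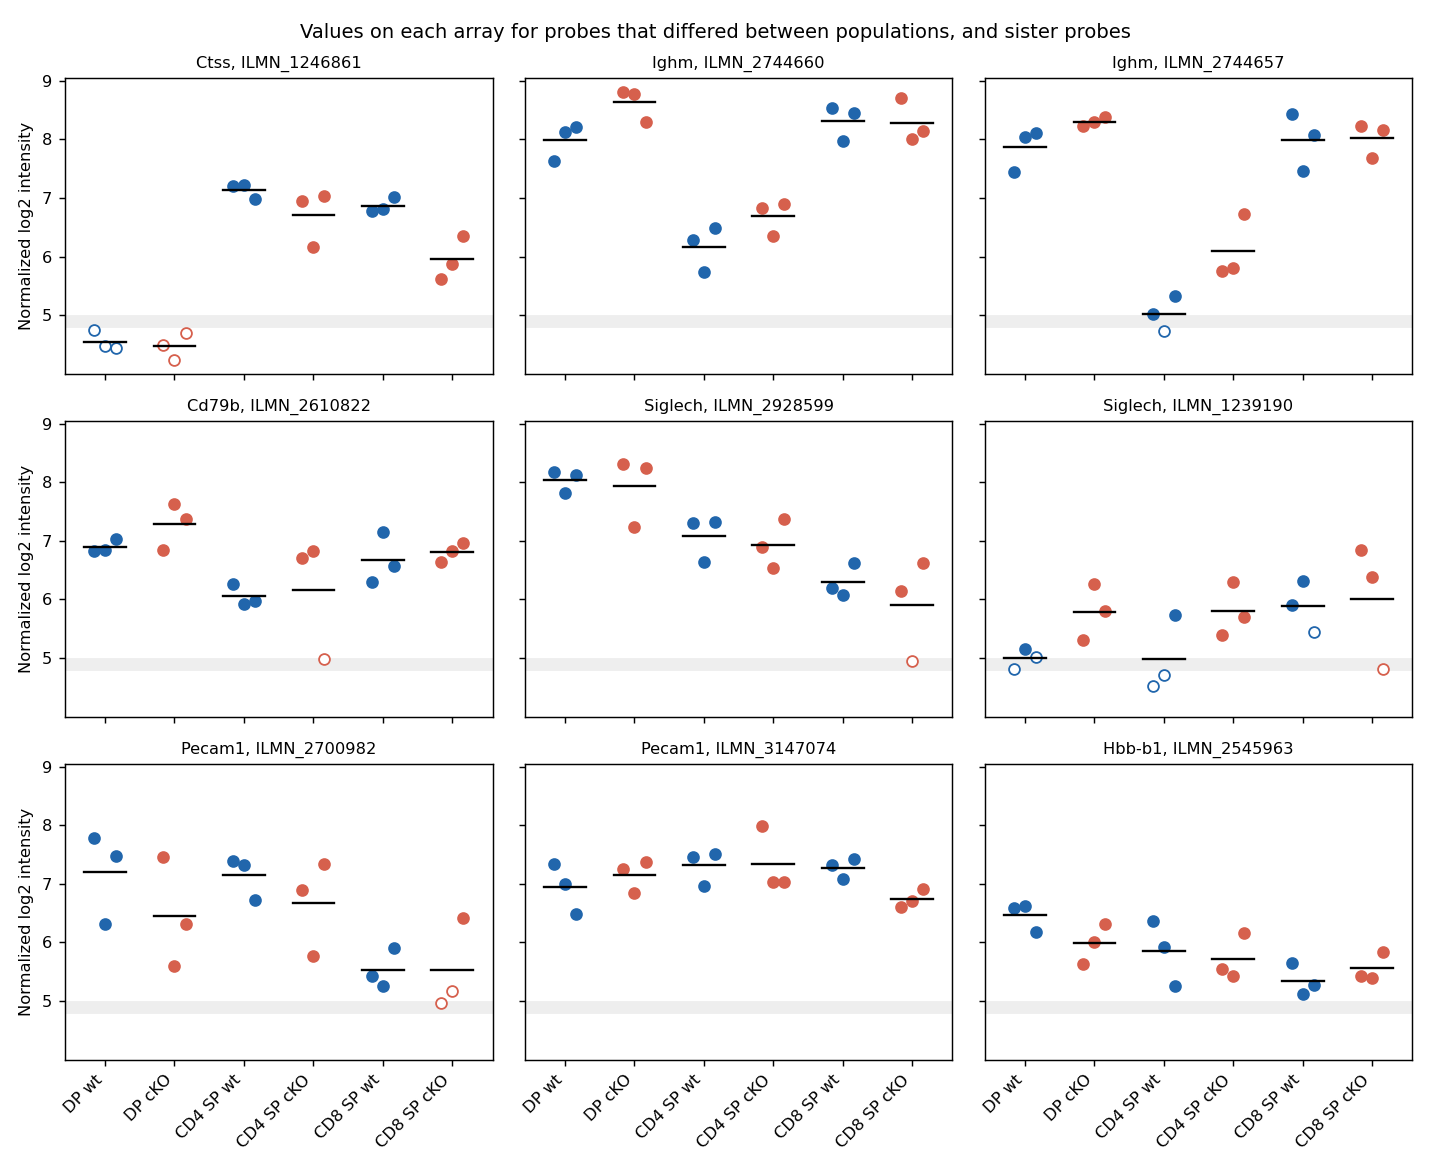
Normalized log2 intensity (y axis) on each array by group for the probes called between populations and for second probes of Siglech and Pecam1. Blue points are wt and red points cKO arrays, open points are arrays that did not detect the probe, and black lines are group means of 3. The grey band spans the lowest detected values of 4.79 to 4.99, and open points can also lie above it. Ctss is open on all 6 DP arrays, both Ighm probes are lowest in CD4 SP, and the Siglech and Pecam1 pairs differ in pattern.

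Among erythroid genes 1 of 6 tested Hbb-b1 probes was called. ILMN_2545963 read 6.58, 6.62 and 6.18 in DP wt and 5.63, 6.01 and 6.32 in DP cKO. Its CD4 SP readings were 6.37, 5.93 and 5.25 in wt and 5.54, 5.43 and 6.16 in cKO. Its CD8 SP readings were 5.65, 5.12 and 5.28 in wt and 5.43, 5.40 and 5.84 in cKO. CD8 SP minus DP was -0.77 ± 0.22 log2 with overlap (adjusted p = 0.0215, limma), -1.11 within wt and -0.43 within cKO. The other 5 tested Hbb-b1 probes gave -0.47, -0.35, 0.25, 0.33 and -0.16, with no call, so the probes of this gene did not share a direction. The call was lost without background correction (0.0636), with median scaling (0.0595), with the authors' normalized values (0.0989) and with trend and robust variance (0.0634). It was also lost without DP wt array 2 (0.0515), DP cKO array 3 (0.0586), CD8 SP wt array 2 (0.0558) or CD8 SP cKO array 2 (0.0521).

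Alpha globin, Hba-a1, was at background on all 18 arrays. Klf1, the transcription factor of red cell precursors, was detected on 13 arrays and ranged from 4.62 to 6.20. It read 5.89, 4.79 and 6.06 in DP wt, 5.61, 5.17 and 5.01 in DP cKO, and 5.25, 6.20 and 4.62 in CD4 SP wt. It read 5.14, 5.86 and 5.43 in CD4 SP cKO, 4.99, 6.07 and 6.10 in CD8 SP wt, and 5.45, 6.01 and 5.08 in CD8 SP cKO. The 3 CD4 SP wt arrays alone spanned the whole range of Klf1. The neutrophil class had 1 tested probe, for Camp, the precursor of the antimicrobial peptide cathelicidin. Camp read 5.79, 6.59 and 5.86 in DP wt, 5.93, 6.64 and 6.09 in DP cKO, and 6.22, 6.36 and 5.51 in CD4 SP wt. Camp read 5.90, 5.94 and 5.49 in CD4 SP cKO, 5.79, 6.79 and 5.89 in CD8 SP wt, and 6.87, 6.54 and 6.04 in CD8 SP cKO. Camp was detected on every array, with no call, while S100a8, S100a9, Ngp and Elane were at background on all 18.

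Between genotypes 0 of the 30 probes were called in any population by limma. In DP cells 0.00375% of all tested probes were called, 1 of 26676. In CD4 SP cells, in CD8 SP cells and over the mean of the 3 populations 0 of 26676 were called. At an unadjusted p under 0.05 the counts were 2 of 30 in DP (6.67%, against 8.59% of all tested probes), 2 in CD4 SP (6.67% against 7.64%), 3 in CD8 SP (10% against 4.55%) and 6 over the mean (20% against 11.8%). The median difference of cKO from wt over the 30 probes was 0.12, 0.19, -0.03 and 0.06 log2, beside 0.03, 0.02, 0.00 and 0.02 over all tested probes. A moderated F-test of whether the genotype difference varied between populations called 0 of the 30 probes and 0 of all probes, with a smallest adjusted p of 0.793 over all (limma). Standard errors within a population were 0.24 to 0.66 log2, and the median 95% interval reached 0.81 log2 to either side.

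**Figure D4:**
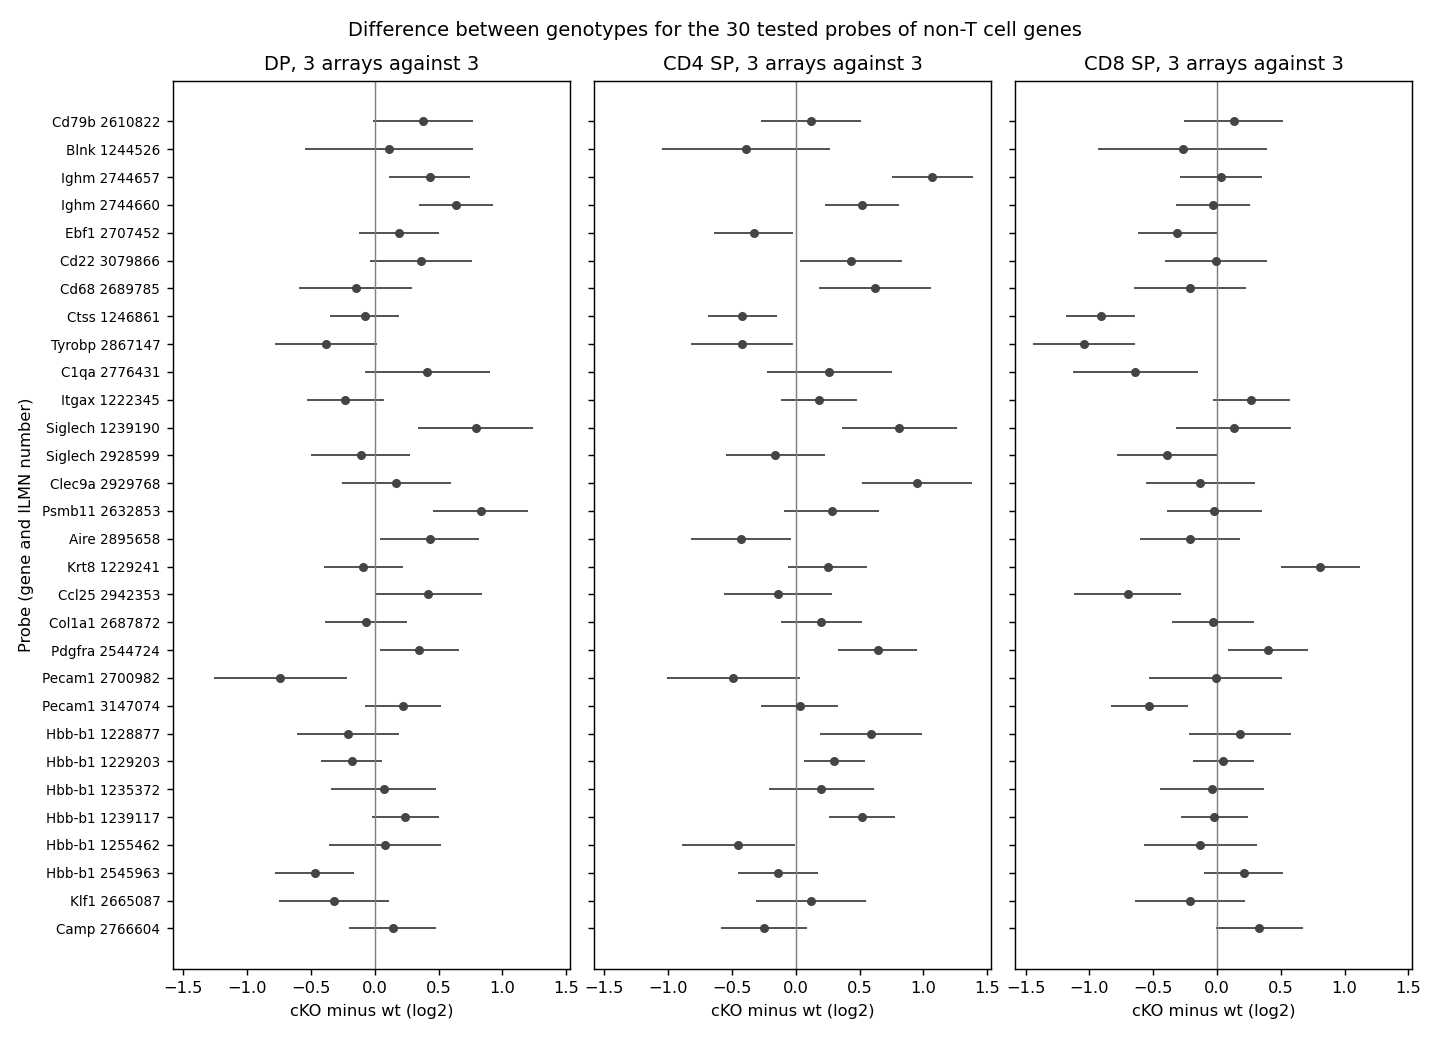
Difference of cKO from wt (x axis, log2) in DP, CD4 SP and CD8 SP cells for each of the 30 tested probes (y axis). Points are differences of group means of 3 arrays and lines reach 1 standard error to either side. All adjusted p-values were 0.51 or more.

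The genotype differences within a population with the smallest p-values are given next, and none of them passed the threshold. Over the mean of the 3 populations, the 6 probes with an unadjusted p under 0.05 were 2 of Ighm and those of Siglech (ILMN_1239190), Pdgfra, Ctss and Tyrobp. Ctss and Tyrobp were lower in cKO and the others higher, with a smallest adjusted p of 0.281 (limma). Ighm ILMN_2744657 was 1.07 ± 0.32 log2 higher in cKO CD4 SP cells, with every cKO array above every wt array (adjusted p = 0.510, limma). The wt arrays here lay near the detection limit. Its second probe gave 0.52 ± 0.29 (adjusted p = 0.706, limma), and in DP cells the probes gave 0.43 ± 0.32 and 0.64 ± 0.29. All 6 B cell probes were higher in cKO DP cells, with a median of 0.37, and 4 of 6 in CD4 SP and 2 of 6 in CD8 SP cells. Of all 26676 tested probes, 14255, 13788 and 13233 were higher in cKO, with populations in the same order. These 6 B cell probes include 2 of Ighm, so they are not 6 separate genes. The 9 tested B cell probes of the wider set below were 6 higher and 3 lower in each population. Their medians were 0.04, 0.41 and 0.09 log2. Ctss was -0.91 ± 0.27 log2 in cKO CD8 SP cells without overlap (adjusted p = 0.933, limma), and -0.42 ± 0.27 in CD4 SP cells. Tyrobp was -1.04 ± 0.40 and Krt8 0.81 ± 0.31 in CD8 SP cells, both without overlap (adjusted p = 1 for each, limma). With 3 arrays against 3, 11.9% of all tested probes in CD4 SP and 8.88% in CD8 SP cells had no overlap between genotypes. Among the 30 probes the counts were 1 (3.33%) and 6 (20%). Clec9a was 0.95 ± 0.43 in CD4 SP cells (adjusted p = 0.626, limma), with 1.80, 1.79 and -0.72 on the 3 BeadChips, and the wt arrays of the first 2 BeadChips did not detect the probe. Psmb11 was 0.83 ± 0.37 in DP cells (adjusted p = 0.563, limma).

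A wider set of 94 genes of the same cell classes had 158 probes for 85 genes. Detection was scarcer than for the 47 genes: 27 to 44 of the 158 probes per array, or 17.1% to 27.8%. Of the 85 genes 33 (38.8%) were never detected, among them the macrophage genes Cd14, Cd163, C1qc, Cybb and Vsig4, the neutrophil genes Ltf and Lcn2, the epithelial genes Cldn3, Cldn4 and Krt19, and Slc4a1, the anion exchanger of red cells. MHC class II genes, which mark antigen-presenting cells, were close to background: H2-Eb1 was never detected and H2-Aa and H2-Ab1 were each detected on 1 array. Cd74, the invariant chain that cathepsin S processes, had 3 probes, detected on 12, 3 and 0 arrays. The brighter Cd74 probe was 0.66 log2 higher in CD4 SP than in DP cells, the direction of Ctss, with no call (adjusted p = 0.266, limma). Cd74 and Ctss were not tested against each other.

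Of the 57 tested probes of the wider set 2 were called between CD4 SP and DP and 4 between CD8 SP and DP (limma). Between CD4 SP and CD8 SP 0 were called. The calls were 3.51%, 7.02% and 0% of the 57, against 11.1%, 15.7% and 9.36% of all tested probes. Between CD4 SP and CD8 SP 3 of 57 (5.26%) had an unadjusted p under 0.05, against 20.9% of all tested probes (limma). Pou2af1, a coactivator of immunoglobulin genes, was higher in CD4 SP and in CD8 SP than in DP cells, by 1.62 ± 0.32 (adjusted p = 0.00215, limma) and 1.55 ± 0.32 log2 (adjusted p = 0.00259, limma). Only 1 of 6 DP arrays detected it, so the size of both differences rests on DP values near background. Fcer2a, the low-affinity IgE receptor CD23, had 3 tested probes, of which ILMN_2975312 was -0.79 ± 0.23 (adjusted p = 0.033, limma) in CD4 SP and -1.17 ± 0.23 (adjusted p = 0.00166, limma) in CD8 SP cells against DP. The other 2 Fcer2a probes gave -0.98 and -0.65 in CD4 SP and -0.74 and -0.61 in CD8 SP cells, with no call. These B cell genes differed in direction, and Ighm, unlike both, also differed between CD4 SP and CD8 SP cells. Sirpa, an inhibitory receptor of myeloid cells, was 0.78 ± 0.23 higher in CD8 SP (adjusted p = 0.0262, limma). Fezf2, a factor for tissue antigens in medullary epithelium, was -1.12 ± 0.31 there (adjusted p = 0.02, limma). Between genotypes 0 of the 57 were called in any comparison, and 5, 5, 2 and 9 had an unadjusted p under 0.05 in DP, CD4 SP, CD8 SP and the mean (limma). These 4 counts were 8.77%, 8.77%, 3.51% and 15.8% of the 57, against 8.59%, 7.64%, 4.55% and 11.8% of all tested probes.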

How the data were processed

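The deposited bead file held, per the file headers, an average bead intensity (linear, not normalized by the authors) and a detection p-value for every probe on every array. How the detection p-value was made was not stated there. The authors' series matrix, a normalized intensity, entered as an alternative. In R 4.3.3, limma 3.58.1 (function neqc with offset 16) corrected background and normalized intensities. Probes with detection p under 0.05 on at least 3 arrays entered 1 linear model with 6 group means (12 residual degrees of freedom). Probes were named from the platform annotation (35784 probes with 1 symbol, 10453 without). Per-array values are given for up to 3 genes a class with the highest mean and for all called. The members and lists were chosen with earlier results of these data known. Per the file headers, numbers 1 to 3 are 3 BeadChips, each with every group at the same position, so position and group cannot be told apart. Residuals of arrays with the same number had a median correlation of 0.046 over 45 pairs between groups, 11 of them over 0.1, and of 0.089 over the 18 pairs of the same genotype, 9 of them over 0.1. Between arrays of different number it was -0.016. The fit with the number as a block is an alternative. Array number may limit the precision. Figures were drawn with matplotlib 3.10.9.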

Additional observations from a re-analysis of the deposited data

How the results depend on the processing

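Calls of Ctss, Ighm (both probes) and, for CD8 SP against DP, Siglech held under every alternative run, and no named difference changed sign. Sizes did move: the 13 called differences were 0.26 to 0.5 of their log2 size without background correction, 0.23 to 0.54 with the authors' values, 0.57 to 0.84 with offset 50 and 0.82 to 1.1 with median scaling. Without background correction Ctss was 0.75 (CD4 SP against DP) and 0.57 (CD8 SP against DP), Ighm -0.99 and -0.90 (CD4 SP against DP) and Siglech -0.80 (CD8 SP against DP). With no filter on dim probes, 2 non-T cell probes were called between CD4 SP and CD8 SP. Over all probes, DP genotype calls were 11 with no filter, 7 with a stricter one, and 0 without background correction, with median scaling, with the authors' values and with offset 50. CD4 SP genotype calls were 4 with no filter, 1 with the stricter one and 2 with trend and robust variance, and calls over the mean were 1 without background correction and 2 with the authors' values. Leaving out 1 array gave 0 to 2, 0 to 1, 0 to 1 and 0 to 3 genotype calls (DP, CD4 SP, CD8 SP, mean), with 0 non-T cell probes throughout. It gave 2464 to 2998, 3430 to 4277 and 1994 to 2473 calls for CD4 SP against DP, CD8 SP against DP and CD4 SP against CD8 SP, with 3 to 5, 2 to 5 and 2 to 5 non-T cell probes. Detection on all arrays of a group at p under 0.001 covered 12 probes in DP wt, 10 in CD4 SP wt, 14 in CD4 SP cKO and 14 in CD8 SP wt, and with 1 probe a gene 14 in CD4 SP cKO. At p under 0.05 and with 1 array left out, the counts were 24 to 25, 26 to 27, 19 to 22, 22 to 25, 24 to 28 and 21 to 26 in the order of the groups. With the array number as a replicate block, 1, 0, 0, 0, 3043, 4340 and 2559 probes were called in the 7 comparisons, with 0, 0, 0, 0, 5, 4 and 4 of the non-T cell probes, and no call of a named probe changed. Where a setting moved a result the cause was not tested. Signal near background limits the dim probes.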

Other observations

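In DP cells, probes of the wider set of non-T cell genes were detected on all 3 arrays of a group for 12 of 158 probes in wt and 26 in cKO, while the shares over all probes were 33.6% and 36.0%. In CD4 SP cells the counts were 17 and 24 (32.8% and 34.7% of all probes), and in CD8 SP cells 18 and 20 (33.5% and 33.1%). On at least 1 array of the group, 52 of the 158 probes of the wider set were detected in DP wt and 50 in DP cKO. Single DP arrays detected 27, 29 and 36 of them in wt and 43, 39 and 32 in cKO, so the genotypes overlapped. Among the 5 tested erythroid probes of that set, 3 of them for Rhag, all 5 were higher in cKO DP cells, with a median of 0.67 log2, and 0 were called (2 had an unadjusted p under 0.05, against 8.59% of all tested probes, limma). Of all 26676 tested probes 14255 were higher in cKO DP cells. The 7 tested erythroid probes of the 47 genes were 3 higher and 4 lower there, with a median of -0.18. Rhag, a membrane protein of the red cell's Rh complex, averaged 6.94 ± 0.25 (SD, n = 3) in cKO and 6.20 ± 0.19 in wt DP arrays with ILMN_1254019, a difference of 0.74 ± 0.27 (adjusted p = 0.464, limma). In CD8 SP cells the same probe gave -0.26 ± 0.27 (adjusted p = 1, limma).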
